A study of Mus musculus with 10 samples.

Results

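A set of 10 genes that mark or are made by fibroblasts was followed through colon tumours of mice with and without Ucp2: Tcf21, Fbln1, Dcn, Lum, Pdgfra, Pdgfrb, Fap, Grem1, Rspo3 and Fgf7. They were chosen by name as tumour fibroblast genes, and partly because Tcf21 and Fbln1 had more signal in Ucp2-/- tumours of these same data. All 10 were found, each with 1 probe set, among the 23111 genes measured. Since the genotype difference took part in the choice, the differences of these 10 genes between genotypes are given as a description. Counts of calls from a fit over all genes stand beside them once, for completeness, and support nothing.

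RNA abundance was measured in 10 mouse colon tumour samples, 5 from Ucp2-/- (KO) animals and 5 from Ucp2+/+ (WT) animals, all C57BL6/J. All animals had gone through the AOM/DSS protocol, which pairs azoxymethane, a carcinogen, with drinking water containing dextran sodium sulphate, which inflames the colon, and tumours were taken 15 weeks after its start. KO and WT animals therefore share carcinogen and colitis, and no untreated colon is among the samples. The labels give neither the make of the Ucp2 allele nor whether samples stem from separate mice, and the p-values below therefore reflect the scatter among these samples, which may be technical. Total RNA was labelled and hybridised to Affymetrix arrays, 1 array per sample, and replicates carry the labels' numbers, 6 to 10 for KO and 1 to 5 for WT. The values are log2 signals of whole tumour pieces. Fewer fibroblasts and less RNA per fibroblast cannot be told apart in them.

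A tumour of the gut holds, beside the epithelium that divides, a stroma of fibroblasts, vessels, muscle and immune cells. Fibroblasts lay down collagen and proteoglycans, answer to platelet-derived growth factor, and send signals to the epithelium. In the normal colon the fibroblasts under the crypt base make R-spondins, which strengthen Wnt signalling, and antagonists of bone morphogenetic proteins (BMP), and together these keep the stem cells there, while BMP signals farther up favour differentiation. In tumours, activated fibroblasts are often recognised by the surface protease encoded by Fap and by smooth muscle actin.

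The targeted locus was checked first. A probe set that the annotation used here leaves unnamed, but whose ID carries the gene number of Ucp2, gave 9.73 to 9.97 in KO tumours and 10.84 to 11.55 in WT tumours, so the groups did not overlap. Since the deleted part of the gene is not given, whether the probes lie in it is not known. Ucp2 lies on chromosome 7 in the RefSeq table of GRCm38.p6, and 0 of the 10 fibroblast genes share that chromosome: Tcf21, Rspo3, Dcn and Lum lie on chromosome 10, Fap, Grem1 and Fgf7 on chromosome 2, Pdgfra on 5, Fbln1 on 15 and Pdgfrb on 18. Dcn and Lum are next to each other among the protein-coding genes of that table. No detection call came with the values. As a guide to background, a signal of 5.14 was used, below which 95% of 1088 olfactory receptor genes, thought silent in colon, had their mean. This guide came from an earlier look at these data. In 39.8% of all genes the mean lay below it.

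The stretch before the transcription start is shown for 4 of the genes: Tcf21 and Fbln1, which had the greatest differences, Pdgfra, whose genotype means were alike, and Fgf7, whose difference had the opposite sign. TCF21 is a basic helix-loop-helix factor, and such factors bind E-boxes, so each match to CANNTG is in capitals (the motif reads the same on both strands). RefSeq promoters of build GRCm38.p6 were at hand for 5 of the 10 genes, and the 250 bases before the start were searched: Tcf21 at chr10:22820144-22820393, minus strand; Fbln1 at chr15:85205699-85205948, plus strand; Pdgfra at chr5:75152001-75152250, plus strand; and Fgf7 at chr2:126034408-126034657, plus strand.
Tcf21: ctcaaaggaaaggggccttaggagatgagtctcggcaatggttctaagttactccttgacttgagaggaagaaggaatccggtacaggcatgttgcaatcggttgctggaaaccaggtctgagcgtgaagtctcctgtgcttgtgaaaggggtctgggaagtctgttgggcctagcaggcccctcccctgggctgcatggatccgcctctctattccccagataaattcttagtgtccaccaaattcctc
Fbln1: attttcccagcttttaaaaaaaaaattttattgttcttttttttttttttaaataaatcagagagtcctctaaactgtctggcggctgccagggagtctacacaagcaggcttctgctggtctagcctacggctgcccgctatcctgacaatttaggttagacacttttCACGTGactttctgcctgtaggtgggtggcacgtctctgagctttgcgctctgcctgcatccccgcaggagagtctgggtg
Pdgfra: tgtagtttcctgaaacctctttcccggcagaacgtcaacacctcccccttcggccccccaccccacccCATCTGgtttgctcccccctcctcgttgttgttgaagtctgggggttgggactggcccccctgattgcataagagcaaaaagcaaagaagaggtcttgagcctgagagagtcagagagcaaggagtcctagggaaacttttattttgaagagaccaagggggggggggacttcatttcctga
Fgf7: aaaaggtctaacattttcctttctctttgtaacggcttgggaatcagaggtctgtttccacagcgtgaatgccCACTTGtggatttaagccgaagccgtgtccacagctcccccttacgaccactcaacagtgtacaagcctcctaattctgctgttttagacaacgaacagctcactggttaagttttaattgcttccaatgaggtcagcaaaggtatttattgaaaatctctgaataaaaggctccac
The stretches of Fbln1, Pdgfra and Fgf7 held 1 match each, with the letters CACGTG 81 bases, CATCTG 182 bases and CACTTG 177 bases before the start. Those of Tcf21 and Grem1 (not printed) held 0. Fbln1 had 2 promoter entries, and only the entry nearest to its RefSeq gene start was searched. A match was found in 66.2% of all 32851 promoter stretches of this length, so 3 of 5 is near what any promoter shows, and a match or its absence says nothing here of binding.

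Tcf21, a transcription factor of mesenchymal cells that is needed for organ mesenchyme in the mouse embryo, had the greatest difference of the 10 genes. Its log2 signal was 6.91, 7.71, 6.97, 7.05 and 6.70 in KO replicates 6 to 10, against 6.58, 6.48, 6.48, 6.73 and 5.98 in WT replicates 1 to 5. KO replicate 7 was the highest tumour and WT replicate 5 the lowest. The genotypes overlapped by a single pair: KO replicate 10 lay just under WT replicate 4, and the other 4 KO tumours lay above all 5 WT tumours. The mean was 7.07 ± 0.38 in KO and 6.45 ± 0.28 in WT (SD, n = 5 each), a difference of 0.62 ± 0.19 (SE of the limma fit), or 1.53-fold. Leaving out KO replicate 7 gave 0.46, leaving out WT replicate 5 gave 0.50, and leaving out KO replicate 10 gave 0.71.

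The matrix genes differed by less. Fbln1 encodes fibulin-1, a glycoprotein of basement membranes and elastic fibres. It had 8.21, 8.75, 8.31, 8.23 and 8.41 in KO replicates 6 to 10, against 8.16, 8.38, 7.89, 7.47 and 7.79 in WT replicates 1 to 5. Of the WT tumours, 4 lay below every KO tumour, while WT replicate 2 lay among them. The means were 8.38 ± 0.22 in KO and 7.94 ± 0.35 in WT (SD, n = 5 each), a difference of 0.45 ± 0.17 (SE) or 1.36-fold.

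Dcn and Lum encode decorin and lumican, small leucine-rich proteoglycans that bind collagen fibrils. Dcn had a steady signal, with 11.18, 11.28, 11.48, 11.23 and 10.91 in KO replicates 6 to 10 and 11.01, 11.17, 11.07, 11.24 and 11.13 in WT replicates 1 to 5. The KO tumours included both the highest and the lowest value, and the difference was 0.09 ± 0.10 (SE), or 0.02 without KO replicate 8 and 0.17 without KO replicate 10. Lum had 4.94, 5.47, 6.01, 5.24 and 5.13 in KO replicates 6 to 10, against 4.94, 5.37, 5.44, 5.03 and 4.69 in WT replicates 1 to 5. It was dim: 3 of 5 KO tumours and 2 of 5 WT tumours were above the guide to background. Its difference of 0.26 ± 0.20 (SE) came with overlapping groups. KO replicate 8 stood highest, and without it the difference was 0.10.

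The receptors for platelet-derived growth factor, which pass growth signals into fibroblasts (Pdgfra) and into fibroblasts and pericytes (Pdgfrb), had nearly equal means. Pdgfra had 9.44, 9.72, 9.62, 9.60 and 9.37 in KO replicates 6 to 10, against 9.07, 9.67, 9.48, 9.61 and 9.87 in WT replicates 1 to 5. The KO tumours lay inside the range of the WT tumours, and the difference was 0.01 ± 0.13 (SE), or -0.11 without WT replicate 1 and 0.09 without WT replicate 5. Pdgfrb had 7.92, 8.13, 8.15, 8.17 and 7.88 in KO replicates 6 to 10, against 7.66, 8.01, 7.97, 8.00 and 8.08 in WT replicates 1 to 5. Of the KO tumours, 3 lay above the highest WT tumour and WT replicate 1 lay below the rest. The difference was 0.11 ± 0.09 (SE), or 0.04 without WT replicate 1.

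Fap, which encodes fibroblast activation protein, a surface protease, was too dim to compare with confidence. Its signal was 4.71, 5.40, 4.80, 4.77 and 4.75 in KO replicates 6 to 10, against 5.25, 4.82, 4.68, 4.54 and 4.65 in WT replicates 1 to 5, with 1 tumour of 5 above the guide to background in each genotype, KO replicate 7 and WT replicate 1. The difference of 0.10 ± 0.16 (SE) was -0.03 without KO replicate 7 and 0.21 without WT replicate 1.

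Another 3 genes encode secreted signals to the epithelium. Grem1 encodes gremlin-1, an antagonist of BMP. It had 9.09, 9.59, 9.58, 9.30 and 8.98 in KO replicates 6 to 10, against 9.69, 9.05, 9.10, 9.15 and 8.52 in WT replicates 1 to 5. WT tumours held both the highest and the lowest value, and the difference was 0.21 ± 0.20 (SE), or 0.35 without WT replicate 1 and 0.06 without WT replicate 5. Rspo3, an R-spondin, had 5.54, 6.16, 5.83, 5.62 and 5.14 in KO replicates 6 to 10, against 5.46, 5.38, 5.68, 5.39 and 5.12 in WT replicates 1 to 5. KO replicates 7 and 8 lay above all WT tumours and KO replicate 10 lay with the lowest WT tumour. The difference was 0.25 ± 0.17 (SE), or 0.13 without KO replicate 7 and 0.38 without KO replicate 10.

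Fgf7 encodes keratinocyte growth factor, which fibroblasts send to epithelial cells. It was the 1 gene of the 10 with a lower mean in KO. Its signal was 7.72, 7.86, 8.43, 7.74 and 7.17 in KO replicates 6 to 10, against 7.92, 8.02, 7.90, 8.78 and 7.77 in WT replicates 1 to 5. WT replicate 4 was the highest tumour and KO replicate 10 the lowest, and the groups overlapped between them. The difference was -0.29 ± 0.23 (SE), a 1.23-fold lower mean in KO, or -0.14 without KO replicate 10 and -0.12 without WT replicate 4. Leaving out KO replicate 8 gave -0.45.

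**Figure D1:**
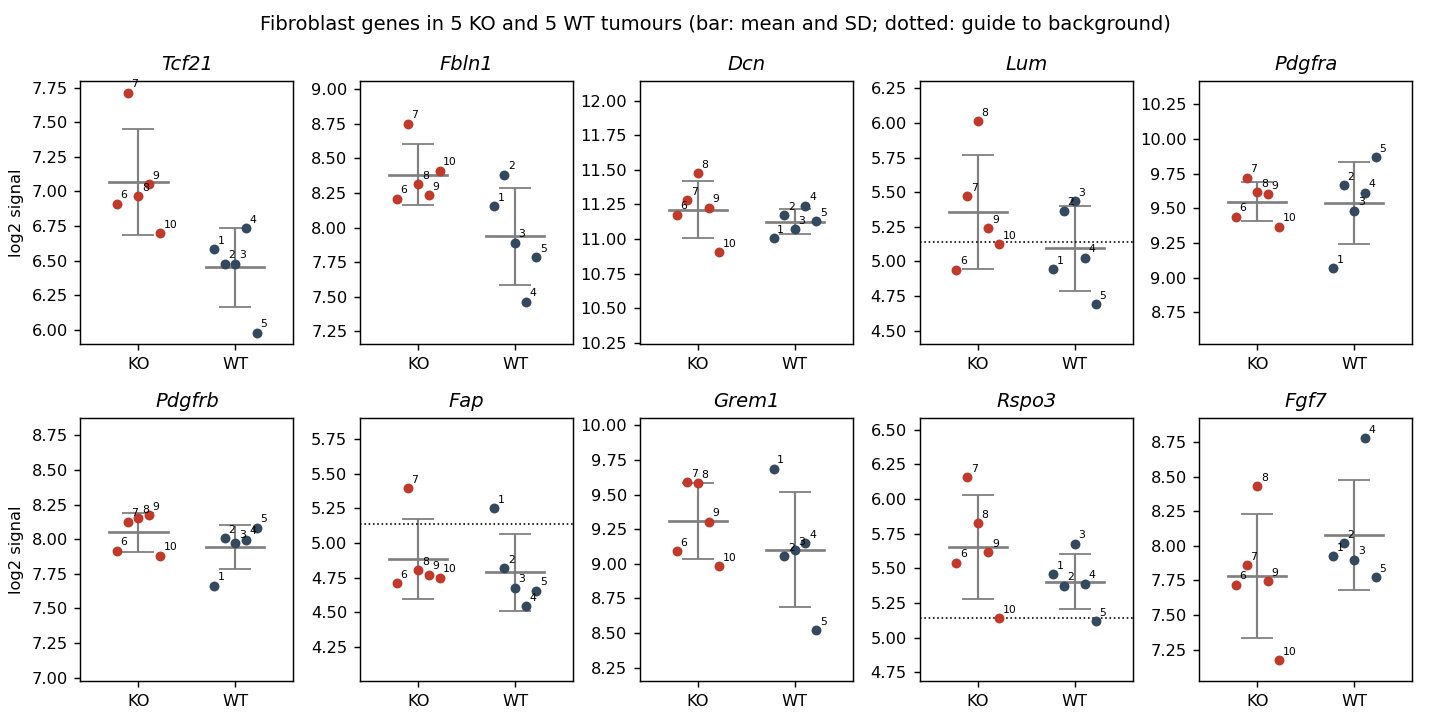
Log2 signal (vertical axis, all panels of equal span) of the 10 fibroblast genes in KO tumours (left) and WT tumours (right), 1 point per tumour with its replicate number, with mean and SD (n = 5 each) in grey and the guide to background of 5.14 dotted where it falls in the panel. In Tcf21 4 KO tumours lie above all WT tumours, and in the other panels the groups overlap more widely.

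Of the 10 genes, 9 had a higher mean in KO and 1 a lower one, where 42.2% of all genes had a higher mean in KO. The median difference was 0.16, beside -0.02 over all genes. By limma with Benjamini-Hochberg adjustment over all 23111 genes, 0 of the 10 were called at adjusted p under 0.05, and the background was 0% of all genes as well. At unadjusted p under 0.05, 2 of the 10 were higher in KO, Tcf21 and Fbln1, the genes for which the set was partly picked, where 2.22% of all genes were, and 0 were lower, where 2.55% of all genes were; in either direction the background was 4.77%. In 0 of the 10 did every KO tumour lie above every WT tumour, against 0.329% of all genes, or below, against 0.506%. These counts are no test of the 10 genes, and nothing is read from them, because the same contrast served to choose the genes. The number of members with a higher KO mean was 7 without KO replicate 7. Members at unadjusted p under 0.05 in either direction numbered 1 without KO replicate 7 and 3 without KO replicate 10. They numbered 3 as well with a smooth muscle score, defined below, as a covariate.

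Smooth muscle can be sampled with a tumour, so its markers were measured beside the fibroblast genes. All 12 measured markers had a higher mean in KO, among them the muscle actin gene Actg2 (8.04 ± 0.60 in KO and 7.52 ± 0.48 in WT, SD, n = 5 each), with a median difference of 0.27. In 0 of the 12 did the limma test call a change (adjusted p = 0.91 for each of the 4 with the smallest p, and 0 at unadjusted p under 0.05). Casq2, with means of 4.62 in KO and 4.58 in WT, was the 1 marker of the 12 below the guide to background. The smooth muscle score of a tumour, the mean over the 12 of the log2 signal minus the gene's mean over all arrays, was 0.06, 0.65, 0.26, 0.20 and -0.44 in KO replicates 6 to 10, against -0.28, -0.20, 0.12, 0.13 and -0.49 in WT replicates 1 to 5. KO replicate 7, highest in Tcf21, Fbln1, Fap and Rspo3, was also highest in this score, and KO replicate 10 and WT replicate 5 were lowest. The median difference of the 12 was 0.13 without KO replicate 7.

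With that score as a covariate in the limma fit, the difference of Tcf21 was 0.37 ± 0.12 (SE) and that of Rspo3 0.01 ± 0.09. Grem1 came to 0.04, Lum to 0.10, Pdgfrb to 0.05, Fap to 0.03, Dcn to -0.001 and Pdgfra to -0.04. Fbln1 kept a difference of 0.44, and that of Fgf7 was farther from 0, at -0.53. The median over the 10 genes was 0.03 with the covariate, beside 0.16 without it. The score was measured on the same arrays, and its mean was higher in KO although the groups overlapped. How much of the genotype difference such a fit takes away with it therefore cannot be told apart from a difference in tissue sampled.

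**Figure D2:**
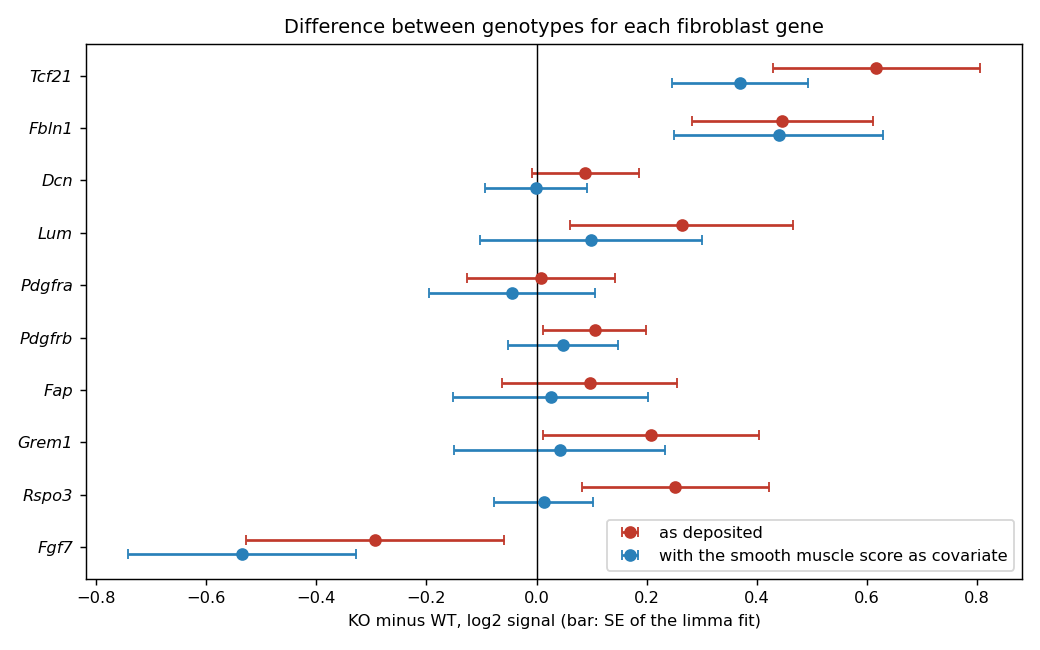
KO minus WT difference in log2 signal (horizontal axis) of the 10 fibroblast genes, with the SE of the limma fit, as deposited (red) and with the smooth muscle score as a covariate (blue). Rspo3 goes to 0.01 and Tcf21 to 0.37 with the covariate, while Fbln1 stays at 0.44 and Fgf7 lies at -0.53.

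A measure that owes nothing to the genotype difference is how the genes vary among tumours of the same genotype. The deviations of each gene from its genotype mean were therefore compared over the 10 arrays, with exact two-sided permutation p over all orders within genotype. The spread within genotype (SD) ranged from 0.15 in Pdgfrb to 0.42 in Fgf7, with a median of 0.30 over the 10 genes, beside 0.17 over all genes above the guide to background. Of the 45 pairs, 34 correlated positively and 11 negatively, with a median Pearson r of 0.35 and a range from -0.48 to 0.92. Against markers of other cell types, described below, 73 of 90 relations of the 10 genes were positive, with a median r of 0.42. Positive r was therefore not particular to pairs of these genes, and no share over all gene pairs is given here. Of the 45 pairs, 8 by Pearson r and 8 by Spearman rho stood at raw p under 0.05, and 0 passed after adjustment over the 45.

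The receptor genes Pdgfra and Pdgfrb had the highest r of the 45 pairs, with r = 0.92 (exact permutation p = 0.00125, adjusted p = 0.0563) and rho = 0.81 (exact permutation p = 0.0105, adjusted p = 0.0944). Without the 2 arrays farthest from the median of Pdgfra r was 0.85. With single arrays left out the adjusted p ranged from 0.0313 (without KO replicate 7) to 0.203 (without KO replicate 6 or 10), and besides KO replicate 7 only leaving out KO replicate 9 took it below 0.05, at 0.0469. It was 0.157 after quantile and 0.114 after cyclic loess normalization. Dcn went with Fgf7 at r = 0.87 and rho = 0.89 (exact permutation p = 0.00632 and 0.00167, adjusted p = 0.132 and 0.075), and at r = 0.71 without the 2 farthest arrays. It also had r = 0.69 with Pdgfrb (exact permutation p = 0.0113, adjusted p = 0.132) and rho = 0.64 (exact permutation p = 0.0682, adjusted p = 0.279), with r = 0.72 without the 2 farthest arrays. Its neighbour Lum went with it less closely, at r = 0.58 and rho = 0.55 (exact permutation p = 0.146 and 0.135, adjusted p = 0.48 and 0.404), or r = 0.22 without the 2 farthest arrays.

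The signal genes Grem1 and Rspo3 were then set against Tcf21 and against each other. Tcf21 and Rspo3 had r = 0.82 and rho = 0.75 (exact permutation p = 0.0147 and 0.0182, adjusted p = 0.132 and 0.136), but r was 0.48 without the 2 arrays farthest out in Tcf21, KO replicate 7 and WT replicate 5, so it leans on those tumours. Tcf21 and Grem1 had r = 0.71 and rho = 0.79 (exact permutation p = 0.0235 and 0.00646, adjusted p = 0.144 and 0.0938), and r was 0.45 without the same arrays. Grem1 and Rspo3 had r = 0.68 and rho = 0.85 (exact permutation p = 0.0135 and 0.00562, adjusted p = 0.132 and 0.0938), and r was 0.87 without the 2 arrays farthest out in Grem1.

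Fbln1 and Tcf21, the genes with the greatest genotype differences, did not pass the test as a pair. Their r was 0.31 and rho 0.36 (exact permutation p = 0.386 and 0.341, adjusted p = 0.613 and 0.59), and r was -0.61 without the 2 arrays farthest out in Tcf21. WT replicate 4, the highest WT tumour in Tcf21, was the lowest in Fbln1. Fbln1 went with the dim gene Fap at r = 0.75 and rho = 0.83 (exact permutation p = 0.021 and 0.00833, adjusted p = 0.144 and 0.0938), and r was 0.84 without the 2 farthest arrays. The lowest value among the pairs, r = -0.48 between Pdgfra and Grem1 (exact permutation p = 0.247, adjusted p = 0.556; rho = -0.13, exact permutation p = 0.749, adjusted p = 0.843), turned to 0.83 without the 2 arrays farthest out in Pdgfra and so rests on those tumours.

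**Figure D3:**
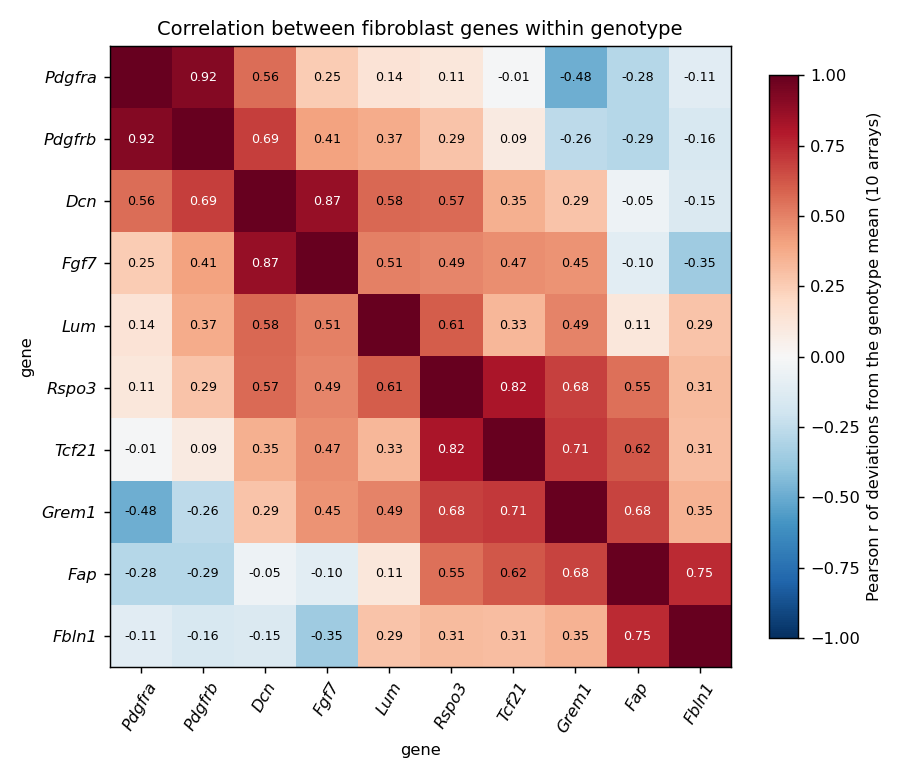
Pearson r (colour and number) between each pair of the 10 fibroblast genes, over deviations from the genotype mean in 10 arrays. Pdgfra with Pdgfrb stands at 0.92 and Dcn with Fgf7 at 0.87, while Tcf21 with Rspo3 stands at 0.82 and Tcf21 with Fbln1 at 0.31.

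The same comparison was made with 9 lists of markers of other cell types, which gives 90 relations. At raw p under 0.05 stood 18 by Pearson r and 21 by Spearman rho, and 0 passed after adjustment over the 90. By Pearson r, Rspo3 was nearest to the smooth muscle score, with r = 0.92 and rho = 0.81 (exact permutation p = 0.0025 and 0.0101, adjusted p = 0.0979 and 0.118), and r was 0.76 without the 2 arrays farthest out in the score. Tcf21 had r = 0.85 and rho = 0.72 with it (exact permutation p = 0.00847 and 0.0238, adjusted p = 0.113 and 0.153), and 0.74 without the 2 farthest arrays. Fbln1 had r = 0.03 and rho = -0.02 (exact permutation p = 0.935 and 0.975, adjusted p = 0.987 and 0.997), with r = -0.35 without the 2 farthest arrays. By rank, Rspo3 was nearer to the T cell markers, with r = 0.79 and rho = 0.88 (exact permutation p = 0.0123 and 0.00451, adjusted p = 0.113 and 0.118). That r was 0.83 without the 2 farthest arrays. With the adipocyte markers Rspo3 had r = 0.68 and rho = 0.82 (exact permutation p = 0.011 and 0.00757, adjusted p = 0.113 and 0.118).

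Other genes of the 10 went with vessels or epithelium in point value. Dcn had its closest relation with the endothelial markers, with r = 0.87 and rho = 0.79 (exact permutation p = 0.00167 and 0.0147, adjusted p = 0.0979 and 0.121), and r = 0.80 without the 2 farthest arrays. Tcf21 had r = 0.71 and rho = 0.73 with the epithelial markers (exact permutation p = 0.00326 and 0.00562, adjusted p = 0.0979 and 0.118), and r = 0.60 without the 2 farthest arrays. With the mesothelial markers, 5 of 8 of them below the guide, it had r = -0.81 and rho = -0.85 (exact permutation p = 0.0106 and 0.00403, adjusted p = 0.113 and 0.118), and r = -0.65 without the 2 farthest arrays. Grem1 had r = 0.86 and rho = 0.83 with the enteric glia and neuron markers (exact permutation p = 0.00472 and 0.0105, adjusted p = 0.106 and 0.118), with r = 0.81 without the 2 farthest arrays, but 6 of those 10 markers lay below the guide to background.

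**Figure D4:**
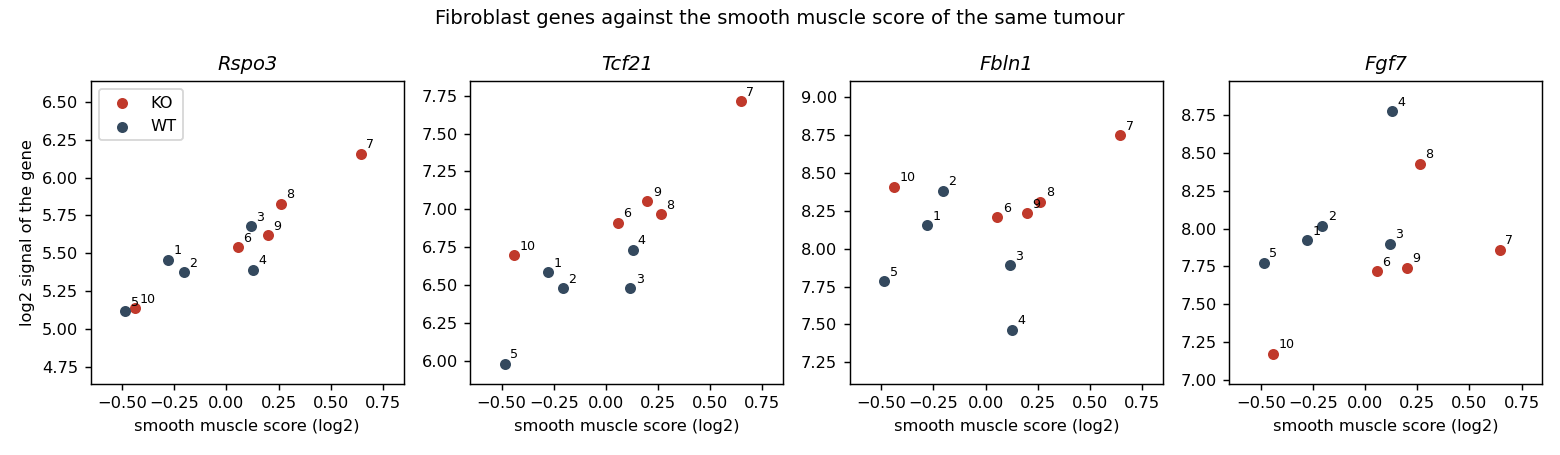
Log2 signal of Rspo3, Tcf21, Fbln1 and Fgf7 (vertical axes) against the smooth muscle score of the same tumour (horizontal axis, log2), with KO tumours in red, WT tumours in blue and replicate numbers beside the points. In Rspo3 KO replicate 7 lies at the top right and KO replicate 10 and WT replicate 5 at the lower left. Within genotype r with the score was 0.92 for Rspo3 (adjusted p = 0.0979) and 0.03 for Fbln1.

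The remaining marker lists place these values. The endothelial score ranged from -0.26 to 0.25 in KO tumours and from -0.29 to 0.20 in WT tumours, with 7 of 12 markers higher in KO. The pericyte score ranged from -0.10 to 0.11 in KO and from -0.08 to 0.08 in WT (4 of 10 higher, 2 below the guide), and the epithelial score from -0.05 to 0.10 in KO and from -0.29 to 0.14 in WT (10 of 12 higher, 0 below the guide). Macrophage markers were higher in KO in 11 of 12, with scores from -0.01 to 0.35 in KO and from -0.27 to -0.10 in WT, so that the groups did not overlap. Their median difference was 0.36, or 0.30 without KO replicate 7 and 0.32 with the smooth muscle score as a covariate. In the limma fit 9 of 12 were higher at unadjusted p under 0.05 (0 after adjustment), where 2.22% of all genes were. T cell markers were higher in 9 of 11, with scores from -0.21 to 0.49 in KO and from -0.44 to 0.13 in WT. Their median difference was 0.37, or 0.20 without KO replicate 7 and 0.02 with the smooth muscle score as a covariate, and 3 were higher at unadjusted p under 0.05. Both medians lay above that of the smooth muscle markers, which had 0 at unadjusted p under 0.05. Cd163, Cd3d and Cd8a lay below the guide in these lists. Of the mesothelial markers 5 of 8 and of the adipocyte markers 3 of 7 lay below the guide, among them Adipoq, the adipocyte hormone gene, and 3 mesothelial and 4 adipocyte markers were higher in KO. Of the enteric glia and neuron markers 5 of 10 were higher. With the epithelial score as a covariate, the median difference of the 10 fibroblast genes was 0.10. Tcf21 then had 0.52, Fbln1 0.43, Grem1 0.09 and Fgf7 -0.38. Apart from the smooth muscle and epithelial covariates and the relations within genotype above, the part of these lists in the fibroblast results was not tested.

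The wider fibroblast programme was described from lists of related genes that leave out the 10. In these lists and those of other cell types, 0 genes were called by limma at adjusted p under 0.05, so the counts below are of genes at unadjusted p under 0.05, where 2.22% of all genes were higher and 2.55% lower in KO. Of 23 other matrix genes of fibroblasts, 17 had a higher and 6 a lower mean in KO, with a median difference of 0.13, and 0 stood higher and 1 lower. That median was 0.04 without WT replicate 1 and 0.04 with the smooth muscle score as a covariate. The lower gene was Col1a1, a chain of the main fibrillar collagen, with 9.27 ± 0.15 in KO and 9.52 ± 0.18 in WT (SD, n = 5 each; limma adjusted p = 0.91). Timp3, an inhibitor of matrix proteases, had 9.81 ± 0.38 in KO and 9.47 ± 0.10 in WT. Of 21 other surface and identity markers 14 had a higher mean in KO, with a median of 0.04, and 0 stood apart in either direction. Cd34, a surface marker of some fibroblasts and of vessels, had 6.73 ± 0.20 in KO and 6.94 ± 0.28 in WT.

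Relatives of decorin and lumican were looked at next. Of 14 other small leucine-rich proteoglycans, 10 had a higher mean in KO, with a median difference of 0.22, or 0.11 without KO replicate 7 and 0.02 with the smooth muscle score as a covariate. Of these, 4 stood higher and 0 lower at unadjusted p under 0.05 (limma adjusted p = 0.91 for each). Bgn, which encodes biglycan, had 11.25 ± 0.35 in KO and 10.83 ± 0.15 in WT, a difference of 0.42 ± 0.15 (SE). Prelp, which encodes a proteoglycan that anchors collagen to basement membrane, had 8.90 ± 0.42 in KO and 8.43 ± 0.32 in WT. The others, Ecm2 and Fmod, had means below or about the guide to background, 4.74 and 5.18 in KO and 4.40 and 4.96 in WT, and 7 of the 14 genes averaged below it.

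Of 16 relatives of Fbln1 among fibulins and elastic fibre genes, 12 had a higher mean in KO, with a median of 0.06, or 0.03 without KO replicate 8 and 0.16 without KO replicate 10. Ltbp1, which encodes a protein that stores latent TGF-beta in the matrix, stood higher, with 7.73 ± 0.23 in KO and 7.38 ± 0.28 in WT (SD, n = 5 each), a difference of 0.35 ± 0.15 (SE; limma adjusted p = 0.91). Efemp1, which encodes fibulin-3, had 7.75 ± 0.30 in KO and 7.43 ± 0.53 in WT, a difference of 0.32 ± 0.24 (SE). The genes of the list with an Fbln symbol had differences of 0.06 (Fbln2), 0.03 (Fbln5) and -0.05 (Fbln7), and were named after their values were seen. Among 12 partners and relatives of Tcf21, basic helix-loop-helix factors, 2 had a higher mean in KO, with a median of -0.02, and 0 stood apart. Scx, a factor of tendon cells, had a difference of -0.11 ± 0.07 (SE). Of the 6 relatives of Fap, 3 had a higher mean in KO and 0 stood apart, with a median of 0.004.

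The list medians of the signalling partners were near the median of all genes, while single genes lay farther from it. Of 11 PDGF ligands and receptor partners 6 had a higher mean in KO (median 0.01), and the ligand gene Pdgfb stood lower, with 6.28 ± 0.16 in KO and 6.54 ± 0.17 in WT (limma adjusted p = 0.91). Of 20 R-spondin and Wnt genes 6 had a higher mean in KO (median -0.05). The secreted Wnt binders Frzb (6.59 ± 0.34 in KO and 6.17 ± 0.24 in WT) and Sfrp1 (8.26 ± 0.67 in KO and 7.55 ± 0.39 in WT) stood higher (limma adjusted p = 0.91 for each). Of 26 BMP genes 11 had a higher mean in KO (median -0.04) and 0 stood apart. Id2, a target of BMP signals, had 9.05 ± 0.16 in KO and 9.42 ± 0.46 in WT. Of 17 other FGF genes 7 had a higher mean in KO (median -0.02). Fgf10, a close relative of Fgf7, stood higher, with 5.32 ± 0.36 in KO and 4.97 ± 0.19 in WT, the WT mean being below the guide to background, and so did the receptor gene Fgfr4, with 7.16 ± 0.11 in KO and 6.90 ± 0.19 in WT (limma adjusted p = 0.91 for each).

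Lists of activated fibroblast states came next. The median of the inflammatory list lay below that of all genes, and that of the contractile list was near it. Of 17 genes linked with inflammatory fibroblasts, 7 had a higher mean in KO, with a median of -0.09, and 1 stood higher and 5 lower. The cytokine genes Il11 (6.48 ± 0.64 in KO and 7.46 ± 0.20 in WT) and Lif (6.46 ± 0.18 in KO and 6.76 ± 0.18 in WT), Cxcl1, a chemokine gene (6.56 ± 0.29 in KO and 7.03 ± 0.17 in WT), and Ptgs2, which encodes cyclooxygenase-2 (8.41 ± 0.81 in KO and 9.54 ± 0.57 in WT), stood lower at unadjusted p under 0.05 (limma adjusted p = 0.91 for each). Several of these genes are made by other tumour cells too. In the other direction, the 7 genes with a higher mean in KO included C4b (difference 0.52), Cxcl12 (0.41), Ccl11 (0.34) and Osmr (0.30). They were named after their values were seen. Of 16 genes linked with contractile fibroblasts, 6 had a higher mean in KO, with a median of -0.03, or 0.003 without KO replicate 10. Of the 16, 0 stood higher and 3 lower. Among these were Inhba, which encodes a chain of activin (6.54 ± 0.28 in KO and 6.94 ± 0.29 in WT), and Tnc, which encodes the matrix protein tenascin-C (8.17 ± 0.40 in KO and 8.61 ± 0.23 in WT; limma adjusted p = 0.91 for both). Other genes of the list had a higher mean in KO. Ncam1, a cell adhesion gene, had 6.89 ± 0.27 in KO and 6.44 ± 0.46 in WT. The difference was 0.42 for Acta2, the smooth muscle actin gene, and 0.37 for Tagln, another muscle gene, both named after their values were seen.

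**Figure D5:**
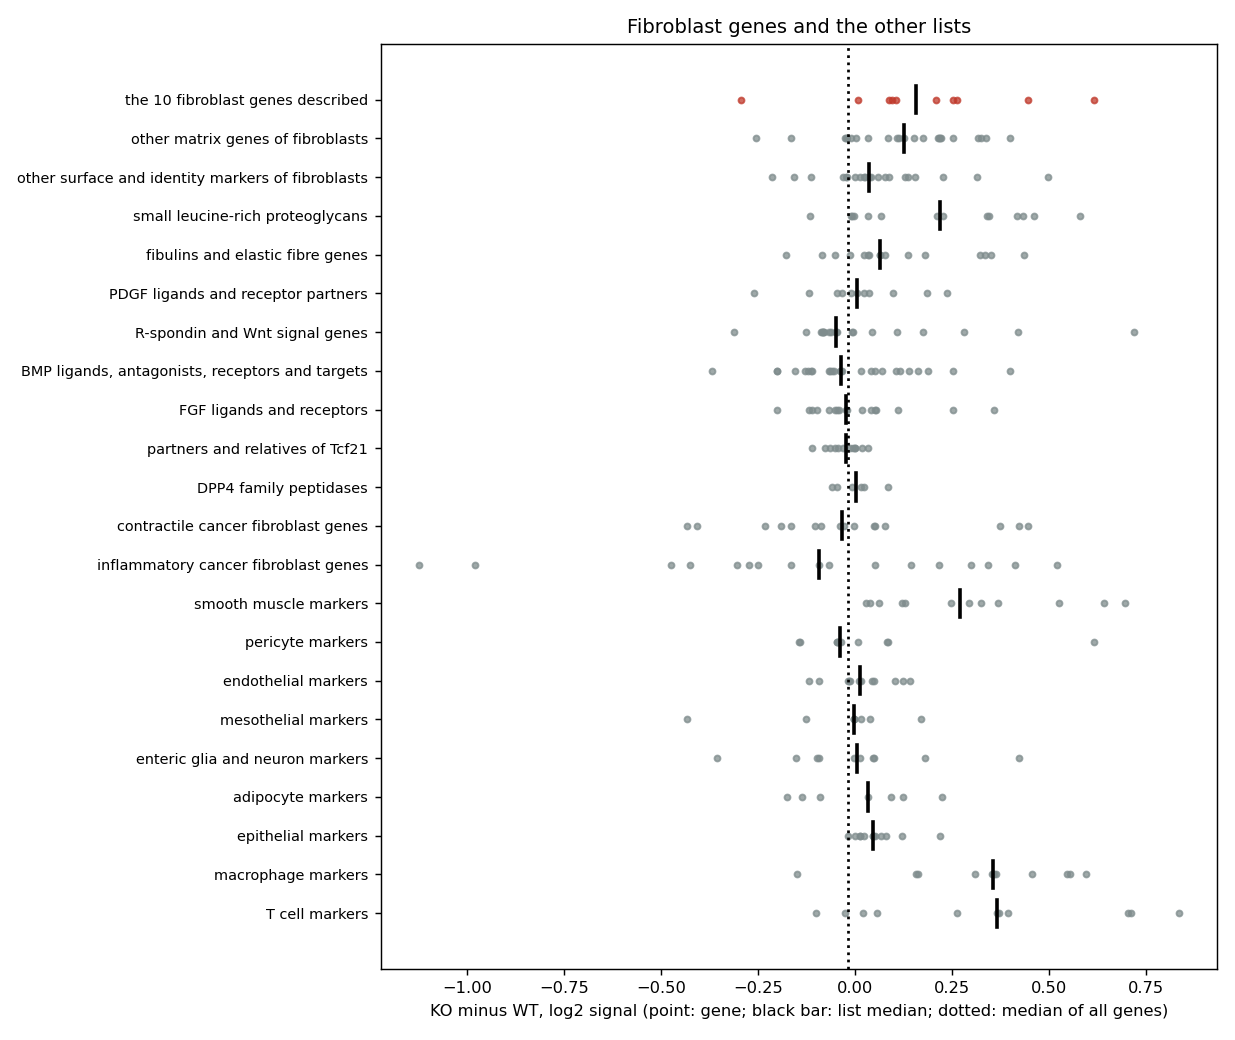
KO minus WT difference in log2 signal (horizontal axis) of each gene of the 10 described (red) and of each other list (grey), with list medians as black bars and the median of all genes, -0.02, dotted. The median is 0.16 for the 10 genes, 0.22 for the other small leucine-rich proteoglycans, 0.27 for smooth muscle markers, 0.36 for macrophage markers, 0.37 for T cell markers and -0.09 for genes of inflammatory fibroblasts.

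The genes most like the 10 within genotype were sought among 13152 named genes above the guide to background, by Pearson r of deviations from the genotype mean over 10 arrays, as a description. The arrays share tissue sampling and normalization, and the best of so many genes is high by selection. The mean deviation of the 10 genes was nearest to Fcgrt, which encodes the neonatal Fc receptor (r = 0.97), Mfsd8, a lysosomal membrane protein gene (r = 0.96), and Cap1, which encodes a regulator of actin (r = 0.95). Oasl1, Mapre2, Glod5, Sec23a, Chic1, Mpdz and Tcta followed (r of 0.93 to 0.94). Tcf21 was nearest to Decr1, which encodes an enzyme of fatty acid oxidation (r = 0.96, or 0.86 without the 2 arrays farthest out in Tcf21), followed by Ano7, A1cf, Pgap6 and Aplp1. Fbln1 was nearest to Lmf1, which encodes a factor for the maturation of lipases (r = 0.97, or 0.98 without the 2 arrays farthest out in Fbln1), followed by H2bc6, Rassf6, Hspa4l and Fndc3a. The lists nearest to Tcf21 and to Fbln1 share 0 genes, and 0 of these 20 genes belong to the fibroblast lists above.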

How the data were processed

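The authors deposited a single table of log2 signals. Per the submitters' processing notes RMA (background correction, equalisation of arrays, summary of probes) and Partek were used. For neither tool is a version, nor for the probes a genome build, given in the sources used here. A log base of 2 was inferred, since values ran from 2.30 to 13.17. Equalised arrays cannot show a shift of all genes, and dim differences are compressed. The number of arrays limits the precision.

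Of 23747 probe sets, 23111 had 1 gene symbol in the platform annotation, 0 several and 636 none. KO was compared with WT by limma 3.58.1 in R 4.3.3 (lmFit and eBayes, no covariate, Benjamini-Hochberg adjustment over 23111 genes, threshold 0.05), tested on simulated data. Correlations used deviations from the genotype mean and all permutations within genotype. No 2 arrays were identical (r of 0.965 to 0.993). Figures were drawn with matplotlib 3.10.9.

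The members, the 21 gene lists, the tests and the alternatives were chosen with earlier results of these data known. Named are the 10 members, up to 4 genes of each list with the smallest p, and the genes most alike in pattern (10 for the mean, 5 each for Tcf21 and Fbln1). Some further genes were named after their values were seen. Promoter sequences are RefSeq's.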

Additional observations from a re-analysis of the deposited data

Results flagged for a closer look

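Each of the 10 fibroblast genes and 9 marker scores was looked at in each genotype for a tumour standing far from the other 4, by Dixon's ratio of gap to range (critical value 0.71). Of 38 groups 3 held such a tumour, and chance flags about 1 in 20 groups. Fap stood at 5.40 in KO replicate 7, where the next KO tumour had 4.80 and the lowest 4.71. Pdgfrb stood at 7.66 in WT replicate 1, where the next WT tumour had 7.97 and the highest 8.08. Fgf7 stood at 8.78 in WT replicate 4, where the next WT tumour had 8.02 and the lowest 7.77.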

How the results depend on the processing

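No paired analysis was possible because KO and WT samples share no replicate number. Limma called 0 genes after adjustment (adjusted p under 0.05), while 1103 had an unadjusted p under 0.05. The count was 2 without dim genes, 1 with an intensity trend and robust estimation, 2 with the epithelial score as a covariate, 3 over all probe sets and 0 to 2 with single arrays left out. These were Kcne3, Trim12a, Trim30d, Gm15133 and the unnamed probe set with the gene number of Ucp2, named after their values were seen, and 0 were among the 10 fibroblast genes. The unadjusted count was 638 without dim genes, where fewer genes were tested, and 735 without KO replicate 7, the cause of which was not tested. The median difference of the 10 genes was 0.11 to 0.23 with single arrays left out and 0.03 with the smooth muscle score as a covariate. Over their alternatives (19, or 18 for Fap, which was left out with the dim genes) Tcf21 lay between 0.37 and 0.71, Fbln1 between 0.33 and 0.56, and Fgf7 between -0.53 and -0.12, while Dcn (-0.001 to 0.17), Pdgfra (-0.11 to 0.09) and Fap (-0.03 to 0.21) took either sign. Pairs of the 10 genes past adjustment numbered 0 to 1 with single arrays left out (Pdgfra with Pdgfrb without KO replicate 7 or 9, Grem1 with Rspo3 without WT replicate 3), and relations with marker lists 0 to 1 (the 1 without WT replicate 1). The lists held 0 called genes in each of their 12 alternatives. Fap had 1 tumour of 5 above the guide to background in each genotype, Lum 3 in KO and 2 in WT, and Rspo3 5 in KO and 4 in WT, which limits what their differences can show.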
